A study of Mus musculus with 4 samples.

Results

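Coronins and the Girdin family were examined together in spermatogonial stem cell (SSC) cultures from CD1 mice. The set held 10 genes of the 55421 in the count table, of which 7 were coronins (Coro1a, Coro1b, Coro1c, Coro2a, Coro2b, Coro6 and Coro7) and 3 were Girdin family genes (Ccdc88a, Ccdc88b and Ccdc88c). The members were taken by gene symbol, and the families were chosen by the log2 fold changes of Coro2b and Ccdc88b, which were among the largest rises in these same libraries. The values of these 2 genes are therefore given as a description with no test, and the other 8 were included as their paralogs. All 10 passed the filter on low counts.

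Coronins are proteins with a WD40 propeller that bind actin filaments. They are known for restraining the Arp2/3 complex, which nucleates branched filaments, and for bringing the cofilin phosphatase Slingshot to it, so that old branches are taken apart. Type I coronins (Coro1a, Coro1b, Coro1c and Coro6) work at the cell cortex, type II coronins (Coro2a and Coro2b) are less studied, and the type III coronin Coro7 acts at the Golgi. Girdin family proteins carry a Hook-like domain at the N terminus followed by a long coiled coil, and Ccdc88a and Ccdc88c also bind G protein alpha subunits. Among their known partners are AKT for Ccdc88a and Dishevelled for Ccdc88c.

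The SSC cultures were established from testes of neonatal CD1 pups and grown on irradiated mouse embryonic fibroblast (MEF) feeder cells from another mouse stock, whose RNA was also present in the libraries. Veh cultures were kept in complete SSC medium, which contains GDNF and FGF2. NRRA cultures received nutrient restriction medium, made by diluting the complete medium with Earle's Balanced Salt Solution, to which retinoic acid (RA) was added. There were 2 libraries in each group. There was no group with only RA or only nutrient restriction, so the effects of the 2 parts of the treatment, and of the diluted growth factors, cannot be told apart. The study's reporting form describes the replicates of its sequencing experiments as biological and independent, while the labels do not name the culture or mice behind each library. The p-values measure the spread between these libraries, for which edgeR gave a common biological coefficient of variation of 2.61%. Whether that includes the spread between separate cultures cannot be told from the labels.

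The libraries held between 28022265 and 31604769 counts, and the floor of 3 counts amounted to 0.0921 to 0.111 CPM (counts scaled to a common library size after TMM normalization). Stra8 and Cyp26a1, which RA induces directly, were 188-fold and 283-fold higher in the libraries labelled NRRA. Of 12 germ cell markers, all passed the filter, with 3 higher and 7 lower, and their summed level was 2783 and 2851 CPM in Veh and 2342 and 2337 CPM in NRRA. The called germ cell markers ran from Utf1 (-2.52 on the log2 scale) to Sall4 (0.84). Zbtb16, a marker of undifferentiated spermatogonia, fell from 442 to 81.7 CPM in the mean, Etv5 (-1.97), Gfra1 (-1.38) and Lin28a (-0.22) fell with it, and Sall4 rose from 181 to 323 CPM. Tex14 and Dazl were the other germ cell markers called higher, and Ddx4, a general one, did not pass the test (270.3 and 274.7 CPM). The 15 fibroblast markers summed to 11390 and 11270 CPM in Veh and to 8686 and 8502 CPM in NRRA. Of them 12 were lower, with Timp1 lowest (-1.52), and Pdgfra (0.98) and Col3a1 (0.61) were higher. Fn1 was the largest part of these sums, at a mean of 6115 CPM in Veh and 4357 CPM in NRRA. The median log2 fold change of the fibroblast list was -0.20. The 12 Sertoli and Leydig cell markers summed to 45.5 and 50.2 CPM in Veh and to 30.4 CPM in each NRRA library. Of these genes 7 passed the filter, and 3 never exceeded the floor. Sox9 was lower (-1.59) and made up most of the fall in the sum, from 28.2 to 9.38 CPM in the mean. Inha (0.53) and Star (0.31) were higher.

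Coro2b had the fifth largest rise among the 8081 genes that had a mean log2 CPM of at least 3, were called in either direction and had groups that did not overlap. Its own mean of 3.06 was close to that limit, and over all 20232 genes tested it ranked at 47. The order among called genes is a description only, since the rise of Coro2b chose the set. The gene, a coronin known mainly from neuronal tissue (ENSMUSG00000041729, GRCm38 chromosome 9, 62419492 to 62537044, minus strand), was counted 60 and 63 times in Veh, against 1013 and 947 times in NRRA. In CPM these were 2.21 and 2.12 against 31.1 and 31.5. Both Veh libraries were low, though above the floor, and both NRRA libraries lay far above them. The fitted log2 fold change, NRRA over Veh, was 3.85 (SE 0.11), or 14.4-fold. No exonic base of Coro2b overlaps another annotated gene.

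Ccdc88b stood just above it in the same order, and at 37 over all genes tested. It encodes a protein known from T cells and myeloid cells in inflammation (ENSMUSG00000047810, chromosome 19, 6844623 to 6858211, minus strand). Veh libraries gave 126 and 105 counts of it and NRRA libraries 2515 and 2175, that is 4.65 and 3.53 CPM against 77.2 and 72.2 CPM. The Veh libraries differed from each other more than those of Coro2b did, yet both remained far below the NRRA libraries. The fitted log2 fold change was 4.20 (SE 0.087), or 18.4-fold, and no exonic base is shared with another gene. The gene next above these 2 in that order was Kit, at a log2 fold change of 5.59, and the gene next below was Cyp26b1, at 3.82.

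The stretches just before the annotated starts of Coro2b and Ccdc88b are shown with that of Ccdc88a, a paralog that rose by 0.52 on the log2 scale, so that the letters can be compared. They come from RefSeq (GRCm38.p6), cover the 250 bases before the start on the gene's own strand, and hold no annotated exon. Of the 10 members, 8 had such an entry. The capitals mark a half-site of retinoic acid receptor elements, searched as the hexamer AGGTCA and its variants AGTTCA or GGGTCA or GGTTCA, or the motif CNCCTCAG, known from STRA8-bound promoters, each on either strand.
Coro2b, chr9:62537045-62537294, minus strand: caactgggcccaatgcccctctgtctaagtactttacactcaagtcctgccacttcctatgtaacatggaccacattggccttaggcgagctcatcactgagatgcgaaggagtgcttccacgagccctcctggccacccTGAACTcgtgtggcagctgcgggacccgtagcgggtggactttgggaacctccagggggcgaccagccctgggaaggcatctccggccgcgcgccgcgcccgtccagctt
Ccdc88b, chr19:6858212-6858461, minus strand: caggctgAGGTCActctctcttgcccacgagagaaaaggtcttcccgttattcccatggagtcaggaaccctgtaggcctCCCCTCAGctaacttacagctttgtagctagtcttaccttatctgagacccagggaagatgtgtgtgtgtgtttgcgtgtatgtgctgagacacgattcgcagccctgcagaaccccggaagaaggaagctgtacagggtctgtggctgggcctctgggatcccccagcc
Ccdc88a, chr11:29373408-29373657, plus strand: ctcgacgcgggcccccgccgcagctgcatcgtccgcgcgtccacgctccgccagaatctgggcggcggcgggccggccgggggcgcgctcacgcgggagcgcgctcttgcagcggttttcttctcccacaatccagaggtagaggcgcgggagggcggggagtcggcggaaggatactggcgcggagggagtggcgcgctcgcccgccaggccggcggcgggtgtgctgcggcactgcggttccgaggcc

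The Coro2b window held 1 half-site, which started 110 bases before the gene's start and read AGTTCA on the opposite strand. The Ccdc88b window held the half-site AGGTCA, 243 bases before the start, and the STRA8 motif as CCCCTCAG, 170 bases before the start. Neither was present in the Ccdc88a window. Of the other members, Coro7, which rose by 0.30 on the log2 scale, held AGGTCA on the opposite strand 181 bases before its start, and 1 of the 2 windows of Coro2a held GGGTCA on the opposite strand at 195 bases. A half-site was found in 38.6% of 32851 promoter windows of the same length and the STRA8 motif in 6.42%, so the first is common. No direct repeat of half-sites spaced by 1, 2 or 5 bases was found in the windows of any member, and such repeats were found in 0.164%, 0.174% and 0.0883% of all windows. The windows also differed in composition, with 15 CpG dinucleotides for Coro2b, 6 for Ccdc88b and 40 for Ccdc88a, against a median of 6 over all windows. These are descriptions of letters, and binding was not measured.

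**Figure D1:**
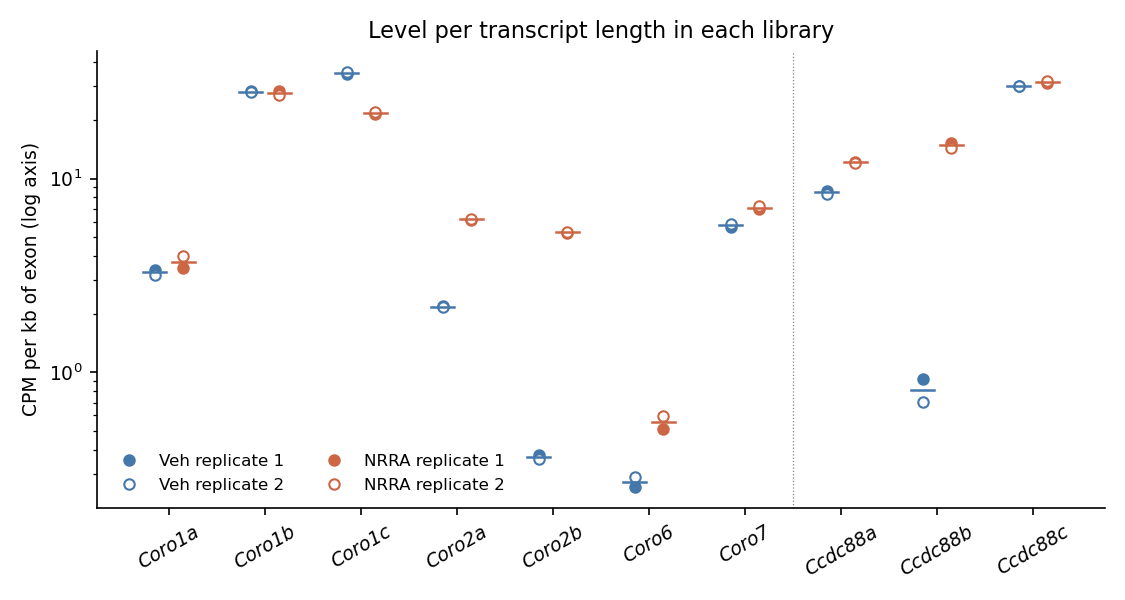
Level of each member in each library, in CPM per kb of exon on a log axis, with Veh in blue and NRRA in orange, replicate 1 filled and replicate 2 open, and a short line at the group mean (n = 2). Coro2b and Ccdc88b move from the low end of the axis in Veh to 5.28 and 14.9 CPM per kb in NRRA, whereas Coro1b and Ccdc88c stay near the top in both groups.

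The change was spread unequally over the paralogs. Of the 8 members not used to choose the set, 5 were higher in NRRA (Coro2a, Coro6, Coro7, Ccdc88a and Ccdc88c), Coro1c was lower, and Coro1a and Coro1b did not pass the test (quasi-likelihood test of edgeR, with p adjusted by Benjamini-Hochberg over 20232 genes and a threshold of 0.05). Of all genes tested, 27.9% were called higher and 28.4% lower, together 56.4%. Nothing is read from the members' count, since the same comparison chose the set. In 7 of these 8 paralogs the NRRA and Veh libraries did not overlap, beside 76.7% of all genes tested. The NRRA libraries lay above both Veh libraries in 6 of them (38.1% of all genes tested) and below both in 1 (38.6% of all genes tested). The median log2 fold change of the 8 was 0.24, and it was 0.00029 over all genes tested.

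**Figure D2:**
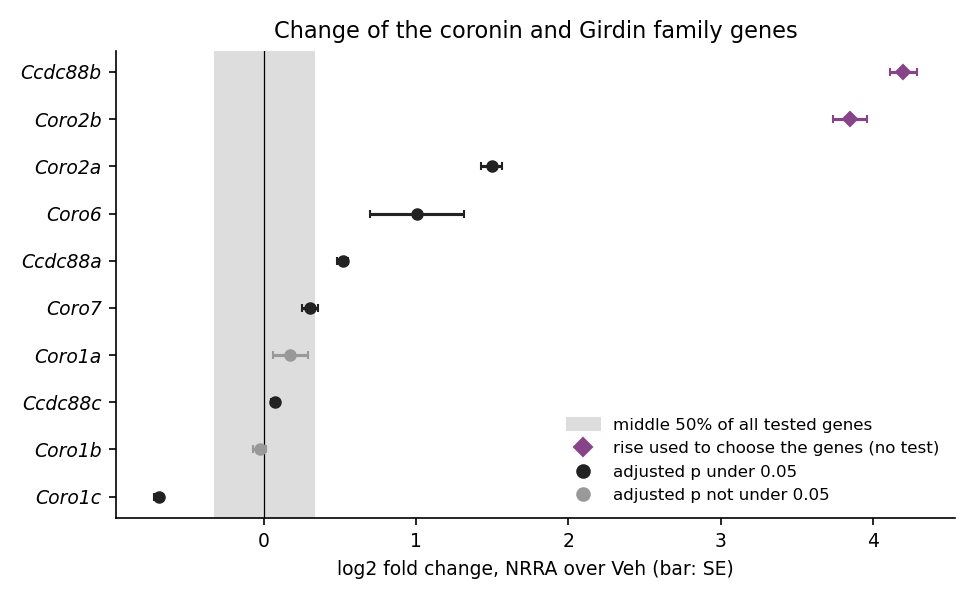
Fitted log2 fold change of each member, NRRA over Veh, with its standard error as a bar and the middle 50% of all tested genes (from -0.32 to 0.33) as a grey band. Coro2b and Ccdc88b, shown as diamonds because their rise chose the set, lie well to the right of Coro2a at 1.50, and Coro1c at -0.69 is the only member to the left of the band.

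Among the type I coronins, Coro1c was the member with the largest level in Veh and the only one that fell. It is a broadly expressed coronin known for a role in cell migration (ENSMUSG00000004530, chromosome 5, 113842436 to 113908758, minus strand). Its level was 336 and 345 CPM in Veh and 208 and 213 CPM in NRRA. The log2 fold change was -0.69 (SE 0.028, edgeR adjusted p 3.27e-17). Both NRRA libraries lay well below both Veh libraries. In bulk RNA, fewer cells of a type and less RNA per cell cannot be told apart. The summed level of the fibroblast markers, with Fn1 as its largest part, moved in the same direction, and the median of that list was -0.20. The part of these markers in the fall of Coro1c was not tested. The antisense gene Gm17122, which overlaps 3.85% of the exonic bases of Coro1c, also fell (-0.72, SE 0.061). The paper describes stranded libraries, but the strand setting of the counting was not given. Reads of the shared bases therefore cannot be assigned to either gene from the counts.

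Coro1b, which acts with Slingshot at the leading edge of moving cells, was the other abundant type I coronin (ENSMUSG00000024835, chromosome 19, 4148619 to 4154035, plus strand). Its level of 90.6 and 89.5 CPM in Veh and 90.5 and 86.0 CPM in NRRA overlapped between groups. The log2 fold change was -0.028 (SE 0.041, edgeR adjusted p 0.583), and its sign turned with library size only (0.061) and without NRRA replicate 2 (0.0067). Ptprcap overlaps 13.5% of its exonic bases on the same strand, but held no more than 35 counts in any library.

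Coro1a, the coronin of lymphocytes and other leukocytes (ENSMUSG00000030707, chromosome 7, 126699773 to 126707787, minus strand), was measured at a low level in these cultures. Veh libraries held 256 and 265 counts of it and NRRA libraries 313 and 334, which is 9.44 and 8.91 CPM against 9.61 and 11.1 CPM. The NRRA libraries were above the Veh libraries by little, and the difference of 0.17 on the log2 scale (SE 0.11, edgeR adjusted p 0.203) did not pass the test. It was 0.068 without NRRA replicate 2, 0.28 without NRRA replicate 1 and 0.26 with library size only (edgeR adjusted p 0.0508 for the last), and passed the test under none of these.

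Because Coro1a and Ccdc88b are known from leukocytes, markers of those cells were examined beside them. The 14 leukocyte markers summed to 54.7 and 56.5 CPM in Veh and to 47.7 and 46.6 CPM in NRRA, and 2 were higher and 4 lower of the 12 that passed the filter. Ptprc, the general leukocyte marker CD45, had 9 and 12 counts in Veh against 11 and 6 in NRRA, or between 0.199 and 0.403 CPM, little above the floor. The highest and lowest called markers of the list were both lymphoid genes. Ikzf1, a lymphoid transcription factor, had 2 and 6 counts in Veh against 58 and 49 in NRRA. Cd79a, a part of the B cell receptor, had 121 and 101 counts in Veh against 32 and 35 in NRRA. The others called were Cd3e, which was higher, and Spi1, Cd68 and Fcer1g, which were lower. Csf1r and Lyz2 were the largest parts of the summed level. Their means were 20.7 and 12.45 CPM in Veh and 18.9 and 12.3 CPM in NRRA, so markers at a low level hardly enter the sum. The part of leukocyte RNA in the values of Coro1a and Ccdc88b was not tested.

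Coro6, a type I coronin of muscle, was the least expressed member (ENSMUSG00000020836, chromosome 11, 77462411 to 77470484, plus strand). Counts were 21 and 26 in Veh against 50 and 54 in NRRA, all above the floor but few. Its log2 fold change was 1.01 (SE 0.31, edgeR adjusted p 0.00681). The call was lost with DESeq2 (adjusted p 0.0600) and without NRRA replicate 2 (adjusted p 0.0556 by edgeR).

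Both type II coronins were higher in NRRA, by different amounts. Coro2a, a coronin also found with the NCoR corepressor (ENSMUSG00000028337, chromosome 4, 46536937 to 46602202, minus strand), was counted 386 and 417 times in Veh and 1287 and 1208 times in NRRA. Its level went from 14.2 and 14.0 CPM to 39.5 and 40.1 CPM, with replicates nearly equal within each group. This was a rise of 1.50 on the log2 scale (SE 0.071, edgeR adjusted p 8.71e-16). The antisense gene Gm16731 overlaps 5.09% of its exonic bases and rose by a like amount (1.49, SE 0.20) from a much lower level of 1.68 CPM. Per kb of exon, Coro2b was at 17.0% and 16.5% of the level of Coro2a in Veh and at 85.9% and 85.5% in NRRA. The longest alignment between their transcripts covered 1198 bases at 70.2% identity, below the 95% taken as near-identical, and Coro2b had no near-identical stretch of at least 100 bases in any other gene.

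Coro7, the Golgi coronin with a tandem of propellers (ENSMUSG00000039637, chromosome 16, 4626133 to 4679777, minus strand), rose slightly. It was at 41.7 and 43.5 CPM in Veh and at 51.6 and 53.4 CPM in NRRA, so that the groups were apart by more than their replicates. The rise was 0.30 on the log2 scale (SE 0.053, edgeR adjusted p 2.55e-05), just inside the middle 50% of all tested genes.

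The coronin transcripts changed in makeup. Per kb of exon, the 7 genes summed to 75.2 ± 0.392 CPM per kb in Veh and 72.1 ± 0.0938 in NRRA (SD, n = 2 per group). In CPM, which weights long transcripts more, the same sum was 499 ± 5.96 in Veh and 435 ± 3.47 in NRRA. Per kb, type I coronins made up 89.0% ± 0.123 of this sum in Veh and 74.3% ± 0.351 in NRRA. The share of the type II pair went from 3.40% ± 0.0644 to 15.9% ± 0.130, and that of Coro7 from 7.63% ± 0.187 to 9.80% ± 0.220. In the difference of the sums, the fall of Coro1c by 13.4 CPM per kb stood against rises of 4.92 for Coro2b, 3.98 for Coro2a and 1.34 for Coro7. With 2 libraries a group, an exact permutation test of such sums cannot go below a two-sided p of 0.333, so none is given. Without Coro2b, whose rise chose the set, the sum of the other 6 went from 74.8 ± 0.404 to 66.9 ± 0.0517 CPM per kb. Of that sum, type I coronins made up 89.4% ± 0.139 in Veh and 80.2% ± 0.336 in NRRA, Coro2a 2.92% ± 0.0476 and 9.22% ± 0.0926, and Coro7 7.66% ± 0.187 and 10.6% ± 0.243.

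**Figure D3:**
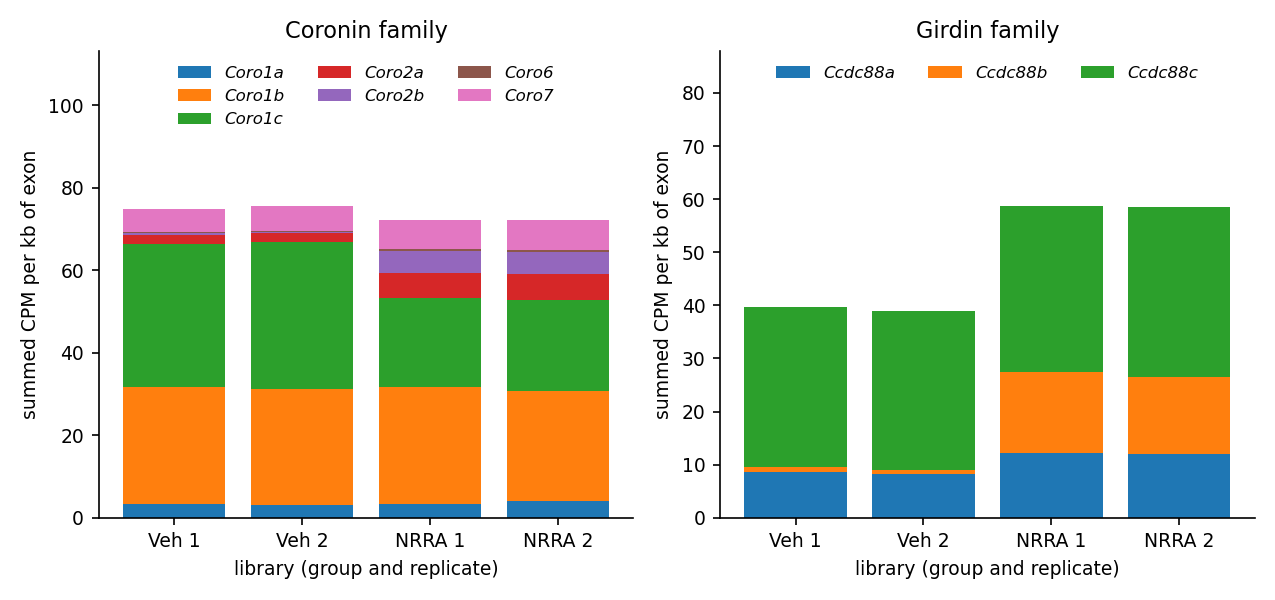
Stacked bars of the summed level of each family in each of the 4 libraries, in CPM per kb of exon, from 0. The coronin bars are of similar height (72.1 to 75.5) with less Coro1c and more Coro2a and Coro2b in NRRA, whereas the Girdin family bars go from 39.0 and 39.7 in Veh to 58.5 and 58.6 in NRRA, mostly through Ccdc88b.

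In the Girdin family the most expressed gene barely moved. Ccdc88c, or Daple (ENSMUSG00000021182, chromosome 12, 100911523 to 101029056, minus strand), was at 343 and 341 CPM in Veh and at 354 and 365 CPM in NRRA. The difference of 0.071 on the log2 scale (SE 0.026, edgeR adjusted p 0.0237) passed the test by a small margin. The call was lost with DESeq2 (adjusted p 0.0661), without Veh replicate 2 (edgeR adjusted p 0.0595) and without NRRA replicate 2 (edgeR adjusted p 0.265), and the difference was 0.16 with library size only (edgeR adjusted p 7.82e-06).

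Ccdc88a, or Girdin, which links AKT signalling to actin and cell migration (ENSMUSG00000032740, chromosome 11, 29373658 to 29510808, plus strand), rose modestly. It went from 94.1 and 90.6 CPM in Veh to 133 and 132 CPM in NRRA, a rise of 0.52 on the log2 scale (SE 0.037, edgeR adjusted p 4.12e-12). The NRRA libraries were nearly equal and stood clear of Veh. None of its exonic bases overlap another gene.

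Per kb of exon, Ccdc88b, which was chosen for its rise, was at 10.7% and 8.43% of the level of Ccdc88a in Veh and at 126% and 119% in NRRA, so that its level passed that of Ccdc88a. Against Ccdc88c it went from 3.06% and 2.34% to 49.3% and 44.8%. Its share of the family sum was 2.06% ± 0.373 in Veh and 25.4% ± 1.15 in NRRA (SD, n = 2 per group). The sum of the 3 genes went from 39.4 ± 0.497 to 58.6 ± 0.107 CPM per kb, a difference of 19.2, of which Ccdc88b gave 14.0, Ccdc88a 3.65 and Ccdc88c 1.51. Without Ccdc88b the sum went from 38.5 ± 0.340 to 43.7 ± 0.592 CPM per kb. The transcripts of the family are distant in sequence. The longest alignment of Ccdc88b was to Ccdc88c, with 185 bases at 69.2% identity.

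Ordered by level per kb in Veh, the members ran from Coro1c (35.2 ± 0.625) through Ccdc88c (30.1 ± 0.111), Coro1b (28.1 ± 0.256), Ccdc88a (8.48 ± 0.229), Coro7 (5.73 ± 0.171), Coro1a (3.30 ± 0.135), Coro2a (2.19 ± 0.0238), Ccdc88b (0.812 ± 0.157) and Coro2b (0.366 ± 0.0113) to Coro6 (0.274 ± 0.0234). In NRRA the order was Ccdc88c (31.6 ± 0.651), Coro1b (27.5 ± 0.976), Coro1c (21.8 ± 0.355), Ccdc88b (14.9 ± 0.699), Ccdc88a (12.1 ± 0.0592), Coro7 (7.07 ± 0.168), Coro2a (6.17 ± 0.0667), Coro2b (5.28 ± 0.0421), Coro1a (3.72 ± 0.377) and Coro6 (0.553 ± 0.0607). The libraries of neighbours in these orders did not overlap, and the exon lengths used are those of the annotation, not of the isoforms present. Ccdc88b moved up by 4 places and Coro1c down by 2. Coro1a moved down by 3 because Ccdc88b, Coro2a and Coro2b passed it, while its own mean was not lower. The exon union of Coro1c is 9664 bases and its longest transcript 5130 bases, so its place depends on the length used.

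The profiles most like those of Coro2b and Ccdc88b were found by the Euclidean distance of log2 CPM over the 4 libraries, which reflects level as well as change. Nearest to Coro2b were Kbtbd11 (distance 0.37), Tcerg1l (0.59) and Ogn (0.67), the last of which encodes a matrix proteoglycan. Nearest to Ccdc88b were Fbxo2 (0.76), Clu (1.54), which encodes a secreted chaperone, and Dhrs3 (1.56), which encodes a retinaldehyde reductase. Kbtbd11 was at 2.73 and 1.85 CPM in Veh and 31.1 and 28.7 CPM in NRRA, and Fbxo2 at 5.86 and 5.71 against 74.9 and 72.8 CPM.

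The other genes of the pathways in which the families act changed in both directions. Of 68 genes in 9 lists, 67 passed the filter, with 23 higher and 28 lower and a median log2 fold change of -0.047, beside 27.9% higher and 28.4% lower of all genes tested. With library size only, 31 were higher and 24 lower, so the balance of directions depends on the scaling. Their median absolute log2 fold change was 0.34, against 0.33 over all genes tested. At least 2-fold rises were called for Gnaz and Gnao1, and an at least 2-fold fall for Cap2. Over all genes tested, 6.29% were at least 2-fold higher and 7.02% at least 2-fold lower.

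Of 10 subunits of the Arp2/3 complex, on which coronins act, 6 were lower and 1 higher, with a median of -0.29. These counts, like those of the lists that follow, stand beside the 28.4% and 27.9% of all genes given above, and no list was tested. Arpc4 fell most (-0.78, SE 0.056), and Actr3b, a minor actin-related subunit at 5.97 CPM in Veh, rose by 0.71 (SE 0.12). The activators of the complex went both ways, with 5 of 10 higher and 3 lower and a median of 0.057, from Wasf3 (0.79, SE 0.042) to Hcls1 (-0.97, SE 0.30). In the WAVE regulatory complex, which holds the Wasf activators inactive until Rac binds, 4 of 7 were higher and 2 lower, between Nckap1l (0.53) and Nckap1 (-0.46), which are paralogs. Among 3 tested inhibitors and debranching factors, Pick1 was higher (0.58) and Gmfb lower (-0.30). Gm49486 overlaps 18.6% of the exonic bases of Pick1, and Ttll3 overlaps 12.2% of those of Arpc4, each on the same strand.

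ADF/cofilin pathway genes, severing factors with their activators and inhibitors, held 8 lower and 4 higher of 14, with a median of -0.19. Cap2 had the largest fall (-1.38, SE 0.10) and Cfl2 the largest rise (0.76, SE 0.044). Of the Slingshot phosphatases, Ssh1 fell by 0.58 and Ssh2 rose by 0.41 on the log2 scale. The summed fibroblast markers were lower in NRRA, with a list median of -0.20, as given above. Their part in the values of the actin genes was not tested.

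G protein alpha subunits, partners of Girdin and Daple, held the largest rise of these lists. Gnaz, a subunit of the inhibitory class, was at 33.1 and 31.6 CPM in Veh against 90.4 and 89.8 CPM in NRRA, a rise of 1.48 on the log2 scale (SE 0.049, edgeR adjusted p 5.14e-19). Gnao1 (1.18) and Gnai1 (0.68) were also higher. Gnas, a stimulatory subunit, fell by 0.92, and Gnai2 fell by 0.52 on the log2 scale. Genes on the opposite strand overlap 22.0% of the exonic bases of Gnas. Gnai3 (0.011) and Gnal (-0.32), the other subunit of the stimulatory class, did not pass the test. The list's median over 7 genes was 0.011.

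Of the G protein regulators that are not receptors, 1 of 7 was higher, namely Gpsm1 (0.68), and 3 were lower, with Gpsm3 (-0.58) lowest. Pbx2 overlaps 16.9% of the exonic bases of Gpsm3 on the same strand. Among Dishevelled and AKT genes, 2 of 6 were higher and 2 lower, between Akt1 (0.23) and Akt2 (-0.27). Hook1 (0.43) and Hook3 (0.23), which share the N-terminal domain type of the Girdin family, were higher, and Hook2 (-0.37) was lower.

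**Figure D4:**
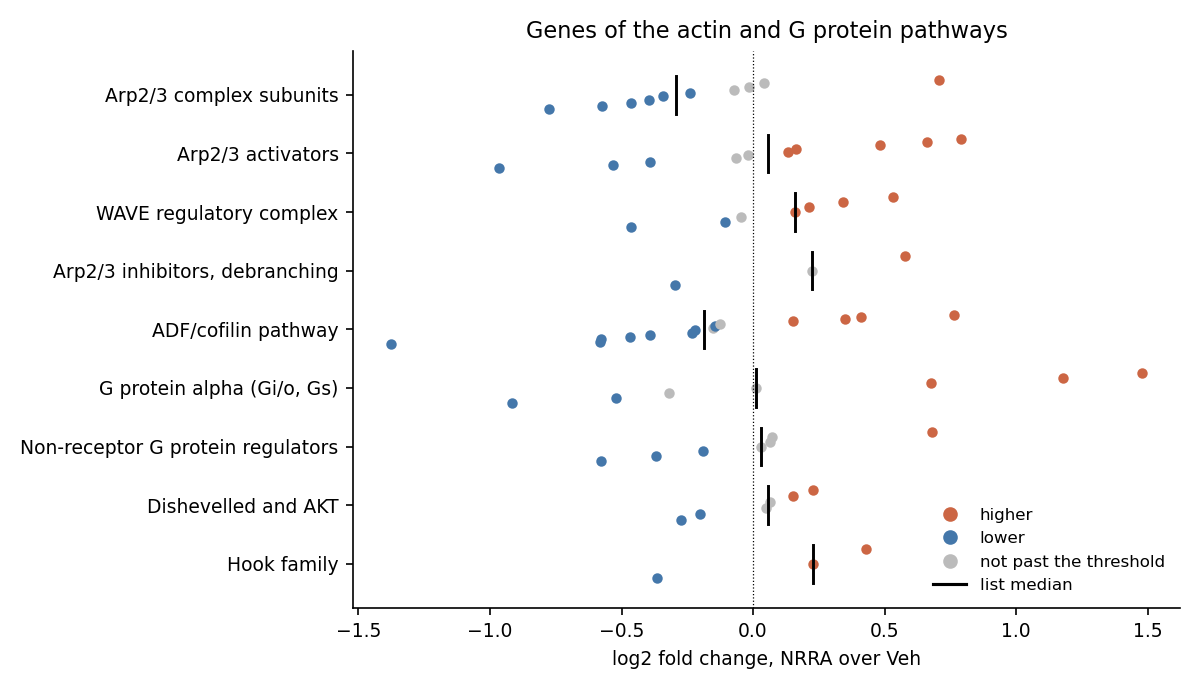
Fitted log2 fold change, NRRA over Veh, of the 67 tested genes in 9 lists of actin and G protein genes, with 1 point per gene, orange for higher, blue for lower and grey for genes not past the threshold, and a black bar at each list's median. Most points lie within 1 log2 unit of 0, with Gnaz at 1.48 and Cap2 at -1.38 at the ends.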

How the data were processed

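Poly(A) RNA-seq counts of 4 libraries, unnormalized and by gene, were deposited by the authors in 1 table. The submitters' processing notes name STAR 2.6.1c, featureCounts 1.6.4 and mm10. The paper describes the RNA-seq libraries as stranded, and the annotation release and the strand setting of the counting were not given in the sources used here. Columns were matched to samples by the description labels, and groups and replicate numbers were taken from the titles. The members and lists were chosen with earlier results of these data known.

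Genes were filtered with filterByExpr, scaled by TMM, and compared between NRRA and Veh with the quasi-likelihood test of edgeR 4.0.16 in R 4.3.3, with Benjamini-Hochberg adjustment over 20232 genes. DESeq2 1.42.0, the tool the study names, was an alternative. The SE was derived from the F statistic. CPM uses TMM-scaled library sizes, log2 CPM a prior count of 2, and levels between genes are CPM per kb of the exon union in GENCODE M21 (GRCm38, the sequence of mm10), which held 99.7% of the gene identifiers. Scripts were tested on simulated counts. Named genes were the 10 members, the highest and lowest called gene of each list of related genes, the 3 nearest profiles of Coro2b and of Ccdc88b, and Stra8 and Cyp26a1. Ssh1, Ssh2, Gnai1, Gnai2, Gnai3, Gnao1, Gnal, Hook3, the markers of other cell types and of germ cells, the neighbours in the order of rises and the overlapping genes were named after their values were seen. Depth was between 28022265 and 31604769 counts a library, and the floor covers counting error only. Some genes that had been listed for these comparisons are not reported here and entered no count of a list.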

Additional observations from a re-analysis of the deposited data

How the results depend on the processing

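Alternatives were other scalings, other filters, DESeq2, no robust estimation, a replicate block and leaving out each library. Of 110 values of single members under them, 102 kept their direction and side of the threshold or, for Coro2b and Ccdc88b, moved by less than the spread over library pairs. With DESeq2, 3 of the 8 paralogs were higher, since Coro6 (1.01) and Ccdc88c (0.072) lost the call. With library size only, Coro1b was 0.061, Coro2b 3.94 and 60.3% of all calls were higher, against 49.6%, with 6962 higher and 4593 lower genes. The median gene shifted by 0.090 on the log2 scale under that setting. Leaving out a library gave between 3 and 5 paralogs higher, and log2 fold changes of -0.066 to 0.0067 for Coro1b, 0.89 to 1.12 for Coro6 and 0.050 to 0.092 for Ccdc88c, with 1 library left in an arm assumed to vary like the others. For Coro2b and Ccdc88b these ranges were 3.82 to 3.88 and 4.01 to 4.40.

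The replicate numbers gave no sign of pairing, with a correlation of -0.011 between the replicate differences of the groups over 20232 genes. These are the numbers of the titles. The descriptions number the Veh libraries 2 and 3 and the NRRA libraries 1 and 2, so the labels do not give 1 pairing. With the replicate block 5772 genes were higher and 5836 lower, and the calls of the 8 paralogs stayed as given. Counts of 21 to 54 limit what can be said of Coro6.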
